A study of Mus musculus with 2 samples.

Results

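Collagen genes, the protein-coding genes of GENCODE release M21 whose symbols read Col, a number, a, and a number, were examined in DNase-seq data of the mouse adrenal gland. There were 44 of them among 21938 protein-coding genes on the mouse build mm10. They were chosen by a rule on names that used no measured value, though earlier results of these data were known. The samples formed 1 group of 2 biological replicates, with no treatment and no second condition, so nothing was compared between conditions and no test was run. The label of each sample named adrenal glands of 3 females aged 10 days, of the strain B6CASTF1/J, a cross of C57BL/6J with CAST/EiJ. DNase-seq cuts accessible DNA with the enzyme DNase I, and peaks mark open chromatin. Values are peak heights, a signal normalised by the authors, and a shared peak is a region where peaks of both replicates overlapped by at least 1 bp.

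Collagens are triple-helical proteins of 3 chains, each kind of chain encoded by its own gene, and they form the main scaffold of the extracellular matrix. Fibrillar collagens make the tensile fibres, type IV makes the sheet of basement membranes, and other classes link, coat or anchor these structures. In the adrenal gland a connective tissue capsule surrounds the steroid-producing cortex, and basement membranes line its dense capillary bed. A whole gland mixes all its cells, so open chromatin in few cells and weakly open chromatin in many cells cannot be told apart.

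Replicate 1 had 98813 peaks and replicate 2 had 55135 peaks in the shorter list that each sample carried, and 48299 regions were shared. Replicate 1 was higher in 93.0% of shared regions, with a median ratio of 1.66-fold of replicate 1 over replicate 2, and this gap lies under every pair of heights given here. Heights were whole multiples of a step in each sample. If a step is 1 tag, which the files do not state, the collagen promoter peaks held 56 to 836 tags in replicate 1 and 61 to 616 in replicate 2, and counting error alone would be 3.46% to 13.4% of the height in replicate 1 and 4.03% to 12.8% in replicate 2. Markers of the labelled tissue were open at 5 of 6 cortex genes, among them Star (3.58 in replicate 1 and 1.25 in replicate 2), which carries cholesterol into mitochondria, and Cyp11a1 (3.74 and 1.87), which starts steroid synthesis from it. Cyp21a1 was the exception, with a peak in replicate 1 only. Of 5 genes known from the adrenal capsule, 4 had a shared promoter peak, led by Pdgfra (4.69 and 3.19) and Gli1 (3.88 and 1.63), and Tcf21 had none in either replicate. These shares, 83.3% for cortex and 80% for capsule, stand beside 63.6% of all protein-coding genes. Lists this short cannot be set apart from that share.

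A shared peak within 1 kb of any annotated start was found at 29 of 44 collagen genes (65.9%), against 63.6% of all protein-coding genes. The share of collagen genes was therefore close to that of genes at large. At principal starts, the main start in the annotation, the count was also 29, against 60.8% of all genes. Peaks of replicate 1 alone stood at 33 collagen genes (75%), against 67.5% of all genes, and peaks of replicate 2 at 31 (70.5%), against 64.5%. Collagen promoter peaks were low in height. The highest promoter peak of an open collagen gene had a median of 1.54 in replicate 1 and 1.14 in replicate 2, against 5.94 and 3.10 over all 13948 open genes. In replicate 1 the highest promoter peaks of all 29 open collagen genes stayed below the all-gene median, and in replicate 2 only that of Col6a2 exceeded it. Among the 50% highest peaks of each replicate, 15 collagen genes kept a shared promoter peak (34.1%), against 55.8% of all genes.

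**Figure D1:**
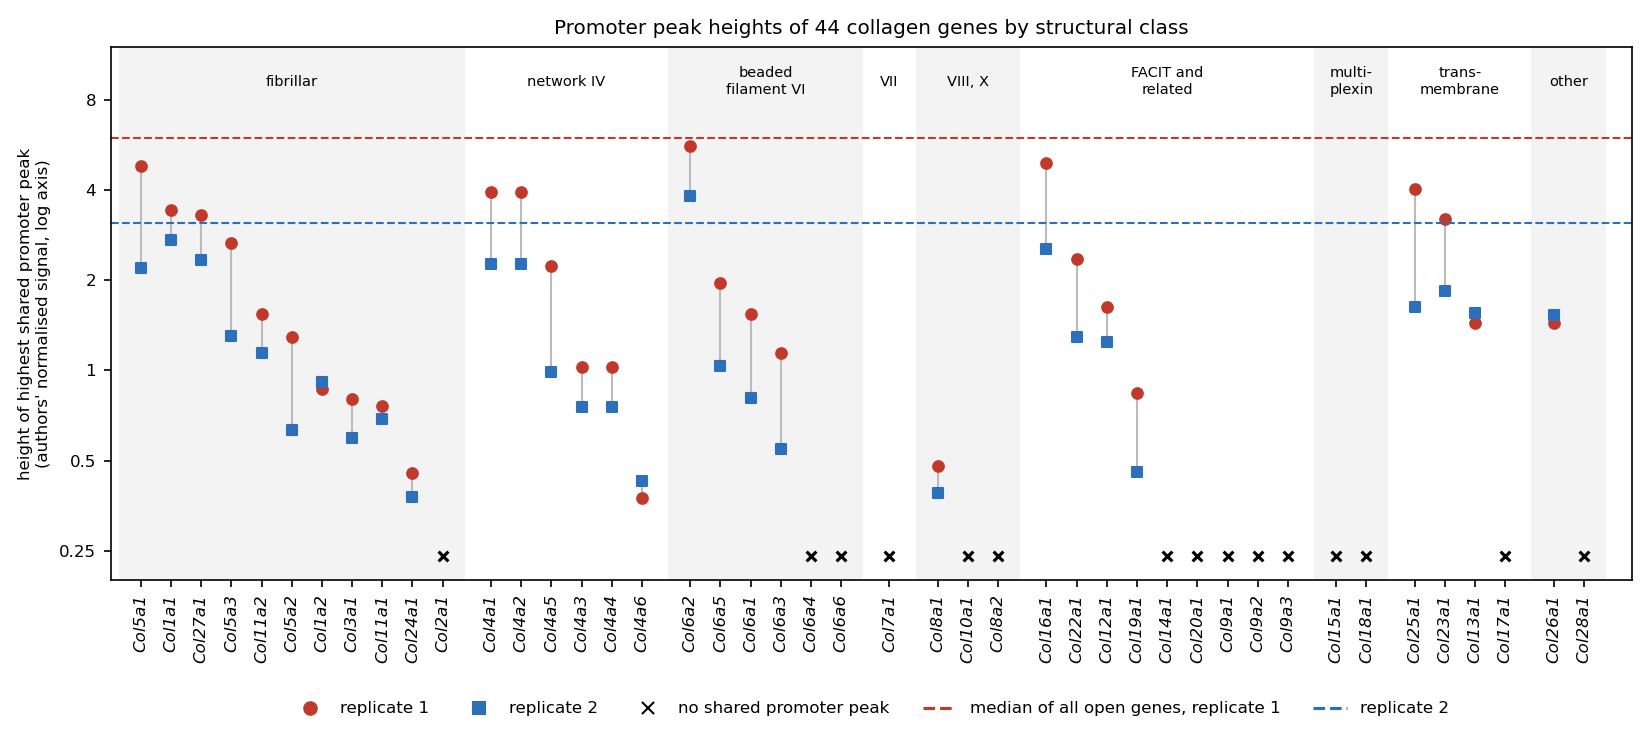
Height of the highest shared promoter peak of each collagen gene on a log axis, by structural class, with replicate 1 as circles, replicate 2 as squares and crosses for genes without a shared promoter peak. Dashed lines mark the medians over all open protein-coding genes, 5.94 in replicate 1 and 3.10 in replicate 2, and only Col6a2 in replicate 2 lies above its line.

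Fibrillar collagens, which assemble into the cross-linked fibres of connective tissue, had a shared promoter peak at 10 of 11 genes. Col5a1, a chain of the type V collagen that starts fibril assembly, had the highest in replicate 1, 4.80, and 2.19 in replicate 2. Col1a1, which encodes the main chain of type I collagen, had 3.42 in replicate 1 and the highest of the class in replicate 2, 2.71. Col27a1, a fibrillar collagen of cartilage and other tissues, had 3.30 and 2.34. Col5a3, a further type V chain, had 2.65 and 1.30. The other 6 open fibrillar genes (Col11a2, Col5a2, Col1a2, Col3a1, Col11a1 and Col24a1) lay between 0.455 and 1.54 in replicate 1 and between 0.378 and 1.14 in replicate 2. Replicate 2 was the higher one at Col1a2, the partner chain of Col1a1, with 0.869 in replicate 1 and 0.917 in replicate 2. Col2a1, the chain of the main cartilage collagen, had no promoter peak in the shorter list of either replicate, and 0.562 and 0.508 in the longer lists.

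Type I collagen joins chains of Col1a1 and Col1a2, and the highest Col1a1 peak exceeded the Col1a2 peak in both replicates. The peaks lay at different places. The Col1a2 peak covered its principal start, whereas no shared peak covered the start of Col1a1. The highest Col1a1 peak lay in an intron at chr11:94937081-94937260 (mm10), 857 bp inside the gene, with another intronic shared peak 3157 bp inside it, near an internal start, at 2.00 in replicate 1 and 1.46 in replicate 2. At the Col1a1 start itself a peak of 1.32 was listed in replicate 1 in the shorter list, and in replicate 2 a peak of 0.831 appeared in the longer list only. Set against the Col1a2 peak (0.869 and 0.917), this start peak was higher in replicate 1 and lower in replicate 2. The order of the 2 genes thus depended on the intronic peak. Col3a1, the single chain of type III collagen that forms mixed fibrils with type I, had a low peak of 0.802 and 0.595 that began 3 bp inside its principal start.

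**Figure D2:**
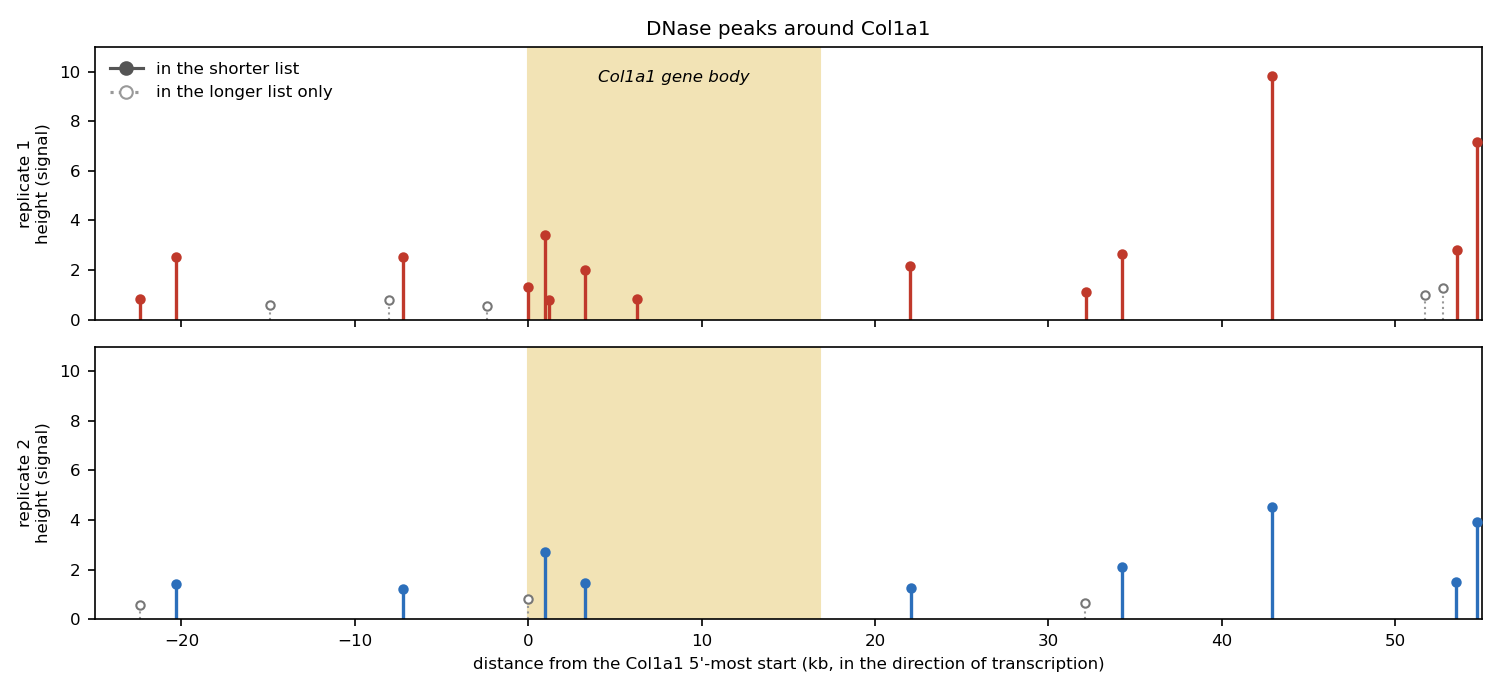
Peaks around Col1a1 by distance from its 5'-most start in kb, replicate 1 above and replicate 2 below, with heights as signal; filled points are peaks of the shorter list and open points peaks of the longer list only. The peak 857 bp inside the gene (3.42 and 2.71) is higher than the peak at the start (1.32 and 0.831), and the peak 42907 bp from the start reaches 9.82 and 4.54.

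The sequences show what lies at the starts of fibrillar genes with high shared peaks and at the Col1a1 intron. The window before Col27a1 is left out because it touches an annotated exon. Each is read 5' to 3' on the strand of its gene, and capitals mark bases that lay inside footprints, short protected stretches within open chromatin, of both replicates. The windows before a start hold 200 bases, from the RefSeq sequence of mm10, and none of the printed windows touches an annotated exon. In the 200 bases before the Col1a1 start no base lay in a footprint of both replicates, while the intronic peak held 2 such footprints with 24 bases. The windows before the Col5a1 and Col5a3 starts held 2 and 4 such footprints. The windows are Col5a1 chr2:27886225-27886424 on the plus strand, Col5a3 chr9:20815068-20815267 on the minus strand, Col1a1 chr11:94936024-94936223 and the Col1a1 intron chr11:94937081-94937260, both on the plus strand.
Col5a1 before the start: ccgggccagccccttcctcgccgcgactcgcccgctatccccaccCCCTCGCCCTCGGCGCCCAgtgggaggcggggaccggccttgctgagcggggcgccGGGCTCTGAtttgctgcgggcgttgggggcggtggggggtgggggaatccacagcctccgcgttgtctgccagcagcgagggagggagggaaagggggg
Col5a3 before the start: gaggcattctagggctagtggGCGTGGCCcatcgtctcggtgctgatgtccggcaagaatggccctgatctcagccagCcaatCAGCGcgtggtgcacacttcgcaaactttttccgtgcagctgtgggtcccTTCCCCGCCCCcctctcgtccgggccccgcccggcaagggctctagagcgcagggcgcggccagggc
Col1a1 before the start: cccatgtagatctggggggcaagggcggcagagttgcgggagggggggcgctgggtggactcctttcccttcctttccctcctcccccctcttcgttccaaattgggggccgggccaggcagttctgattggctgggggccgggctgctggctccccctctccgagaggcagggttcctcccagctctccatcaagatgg
Col1a1 intron peak: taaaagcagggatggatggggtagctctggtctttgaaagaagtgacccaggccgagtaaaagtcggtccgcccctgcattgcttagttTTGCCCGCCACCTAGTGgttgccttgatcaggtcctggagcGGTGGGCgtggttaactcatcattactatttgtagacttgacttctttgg
The letters GGGCGG on either strand, the GC box bound by Sp-family factors, stood in the 200 bases before the start of 22 of 44 collagen genes (50%), against 39.7% of all genes. Among genes with a shared peak within 1 kb of a principal start it was 17 of 29 collagen genes (58.6%), against 57.5%. Within shared promoter peaks, a GC box stood in 20 of 40 collagen peaks (50%), against 67.5% of all. Before its start Col5a3 held 2 GC boxes in these 200 bases. The one farther from the start lay inside a footprint of both replicates. CCAAT, bound by the factor NF-Y, stood there at 12 collagen genes (27.3%), against 31.5%, with 2 copies on the opposite strand before Col1a1. TATAAA stood before Col3a1, Col10a1, Col14a1 and Col17a1, 9.09% of collagen genes, against 9.26% of all genes, and Col3a1 was the only open one of these.

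Basement membrane collagen IV was the class with a shared promoter peak at every gene, 6 of 6. Its genes lie in pairs on opposite strands. Col4a1 and Col4a2, the chains of the network found in nearly all basement membranes, have principal starts 21 bp apart on chromosome 8, and 1 shared peak covered both, with 3.95 in replicate 1 and 2.26 in replicate 2. That peak was 720 bp wide and held 5 footprints of both replicates. Another shared peak lay within 1 kb of both starts, and Col4a2 had a further one in an intron near an internal start, 2.07 and 1.02. Col4a3 and Col4a4, chains of the specialised network of the kidney filter and a few other sites, have 5'-most starts 72 bp apart on chromosome 1 and also had 1 peak over both, with 1.02 in replicate 1 and 0.756 in replicate 2. Col4a5 and Col4a6 on the X chromosome start 1309 bp apart and had 1 peak each. Col4a5, the third chain of the kidney network, had 2.23 and 0.985, and Col4a6, which pairs with it in smooth muscle basement membrane, had 0.374 and 0.428. The Col4a5 peak was the higher in both replicates, and the Col4a6 peak was the lowest promoter peak of any open collagen gene in replicate 1. The 71 bases between the Col4a3 and Col4a4 starts, chr1:82586850-82586920 on the plus strand, are shown because 1 open region served both genes, and no base among them lay in a footprint of both replicates.
Between Col4a4 and Col4a3: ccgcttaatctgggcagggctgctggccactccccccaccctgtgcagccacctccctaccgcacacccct

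Type VI collagen forms beaded filaments that link basement membranes to the surrounding matrix, and 4 of its 6 genes had a shared promoter peak. Col6a2 had the highest peak of any collagen promoter, 5.59 in replicate 1 and 3.82 in replicate 2, at chr10:76623341-76623560, 70 bp inside its principal start. It held the longest footprint shared by both replicates at any collagen promoter, 34 bp. The other chains of the standard trimer were lower, with 1.54 and 0.806 at Col6a1 and 1.14 and 0.545 at Col6a3. Col6a5, an alternative to Col6a3 in the trimer, had 1.96 and 1.04. Col6a4 had no promoter peak in the shorter list of either replicate. At Col6a6 replicate 1 had a peak of 0.428 and replicate 2 a peak of 0.434 near a start, but the peaks did not overlap. The Col6a1 and Col5a2 promoters were the open collagen promoters with no footprint of both replicates, so 27 of 29 open collagen genes had one (93.1%), against 96.1% of all open genes.

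Fibril-associated collagens, which decorate or bridge fibrils, had a shared promoter peak at 4 of 9 genes. Col16a1, found near basement membranes and fibrils, had 4.94 in replicate 1, second to Col6a2, and 2.55 in replicate 2. Col22a1, known from muscle and tendon junctions, had 2.35 and 1.29. Col12a1, which binds type I fibrils, had 1.62 and 1.25, and Col19a1, a minor collagen of basement membrane zones, had 0.842 and 0.459. No promoter peak was listed in the shorter list of either replicate at Col9a1, Col9a2 and Col9a3, the 3 chains of the type IX collagen that coats cartilage fibrils, at Col20a1, or at Col14a1, which binds type I fibrils. Col14a1 had a shared peak of 2.67 and 1.93 at 1170 bp from its nearest start, just outside the window of 1 kb. Just inside the window was a peak 945 bp from the nearest Col4a2 start, and that gene also had a nearer peak. The nearest further peak outside it lay 1063 bp from a start of Col26a1, which was open by other peaks.

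Of the 4 transmembrane collagens, 3 had a shared promoter peak. Col25a1, which is known from neurons, had 4.04 in replicate 1 and 1.62 in replicate 2. Col23a1 had 3.20 and 1.84. The highest peak of Col13a1, a collagen of cell-matrix junctions, lay at an internal start, with 1.44 and 1.55, and the peak near its principal start had 1.38 and 0.886. Col17a1, which anchors epithelial cells to the basement membrane, had no promoter peak, and no base within 1 kb of its starts was listed at a false discovery rate under 0.05 in either replicate. Col26a1 likewise had its highest peak at an internal start (1.44 and 1.53), with 0.635 and 0.62 at 101 bp inside the principal start. Col8a1, a chain of the hexagonal networks of vessel walls and the cornea, had a low peak of 0.481 and 0.39.

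The windows before Col22a1, chr15:72034228-72034427 on the minus strand, and Col25a1, chr3:130180691-130180890 on the plus strand, are shown as starts outside the fibrillar class with 3 and 4 footprints of both replicates. In Col22a1 the GC box nearest the start lies inside the last footprint, and in Col25a1 a GC box lies in the second one.
Col22a1 before the start: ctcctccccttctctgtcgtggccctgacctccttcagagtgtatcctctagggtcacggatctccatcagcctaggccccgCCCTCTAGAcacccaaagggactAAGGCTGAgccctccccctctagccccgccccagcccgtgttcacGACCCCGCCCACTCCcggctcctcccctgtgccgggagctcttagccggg
Col25a1 before the start: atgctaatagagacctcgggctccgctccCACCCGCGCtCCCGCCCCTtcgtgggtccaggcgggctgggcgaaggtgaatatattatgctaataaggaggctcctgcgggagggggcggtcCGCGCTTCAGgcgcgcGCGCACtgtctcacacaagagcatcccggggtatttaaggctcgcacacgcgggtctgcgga

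A shared promoter peak was missing at 15 collagen genes, and these fell into 2 kinds. At 11 of them (Col2a1, Col6a4, Col8a2, Col9a1, Col9a2, Col9a3, Col10a1, Col14a1, Col17a1, Col20a1 and Col28a1) neither replicate had a promoter peak in its shorter list. Col10a1, the collagen of hypertrophic cartilage, is among them. At the other 4 a peak was listed without being shared. Col18a1, the basement membrane collagen from which endostatin is cut, had its highest peak of 1.89 in replicate 1, and replicate 2 had 0.942 at the same place in its longer list only. Col7a1, the anchoring fibril of skin, had 1.26 in replicate 1, near an internal start. Col15a1, the other multiplexin collagen, had 0.655 in replicate 1 and 0.682 in replicate 2, at different starts. Col6a6 is the fourth. In the longer lists 33 of 44 collagen genes had a shared promoter peak, both multiplexins and all 11 fibrillar genes included.

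Collagen starts were poorer in CpG than those of genes at large, with a median CpG observed over expected of 0.435 within 500 bp, against 0.552 for all protein-coding genes. CpG-rich starts are commonly open in every tissue, so the shares were also read within deciles of this ratio over all genes. In the CpG-poor deciles 1 to 3, 6 of 9 collagen genes had a shared promoter peak, against 15.9% of all genes in these deciles. The 6 were Col1a2, Col3a1, Col6a1, Col6a3, Col22a1 and Col24a1. Because peaks were counted at any start, the CpG window can miss the peak. At Col1a2 the peak lay wholly outside the window, with its centre 760 bp from the 5'-most start. In decile 3 alone the count was 5 of 6 collagen genes, against 25.7% of all genes. In deciles 4 and 5 the count was 14 of 23 collagen genes, against 57% of all genes. In the CpG-rich deciles 6 to 10 it was 9 of 12, against 94.8%, and the 3 without a shared peak were Col2a1, Col8a2 and Col15a1. Open collagen genes had a median CpG ratio of 0.447 and those without a shared peak 0.372, whereas over all genes the medians were 0.713 and 0.182. The lower heights were also seen within deciles. In decile 3 the median over 5 open collagen genes was 1.14 in replicate 1 and 0.806 in replicate 2, against 2.79 and 1.67 over all open genes. In decile 8 it was 2.79 and 1.91 over 4 collagen genes, against 7.29 and 3.56. Of these 4, Col4a1 and Col4a2 share the same peak, and the Col13a1 height is that of a peak at an internal start.

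**Figure D3:**
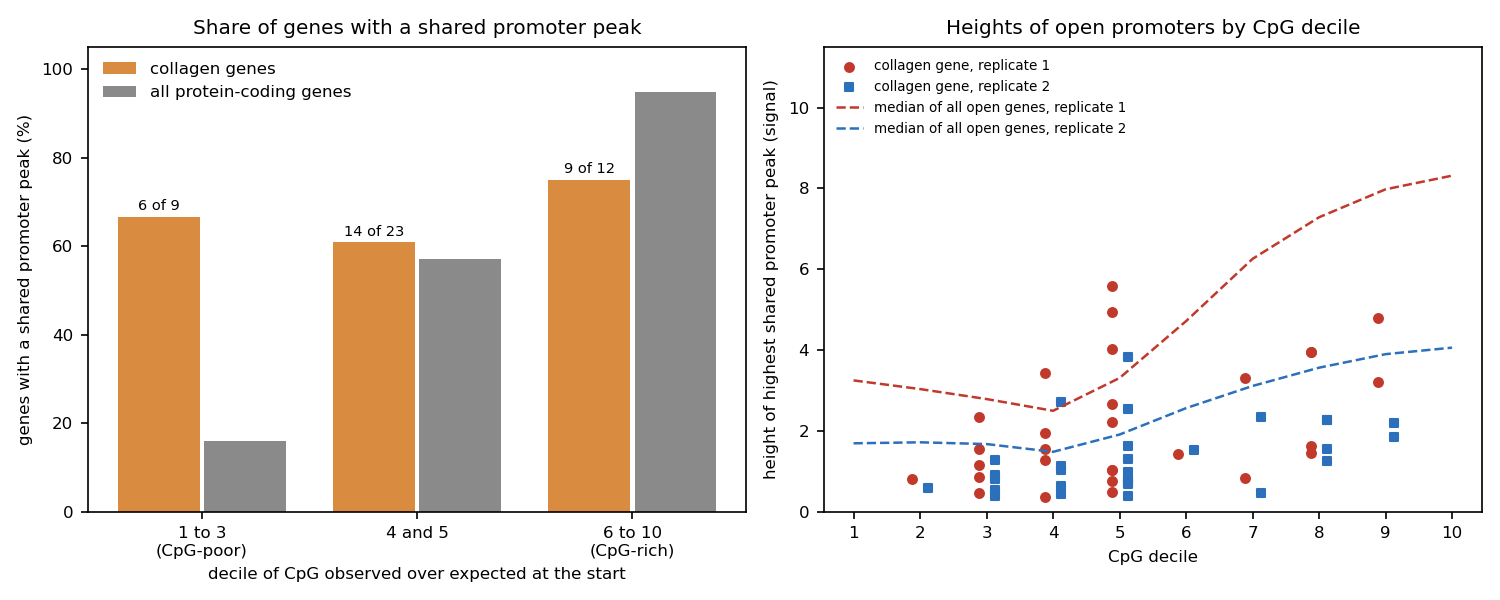
Left, percent of genes with a shared promoter peak in 3 groups of CpG deciles, collagen genes left of all protein-coding genes; right, heights of open collagen promoters by decile with dashed medians of all open genes. The collagen bars lie between 60.9% and 75%, while those of all genes run 15.9%, 57% and 94.8%, and most collagen points lie below the dashed line of their replicate.

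The principal start lay inside a shared peak at 18 of 29 open collagen genes (62.1%), against 80.7% of open protein-coding genes. Open collagen peaks were also narrower, with a median width of 260 bp, against 339 bp. In 25 of the 29 genes replicate 1 was higher, and Col1a2, Col4a6, Col13a1 and Col26a1 were the exceptions. After centring on the median of all shared regions, the log2 ratio (replicate 1 over replicate 2) had a median of -0.18 at collagen promoters, against 0.19 at those of all open genes. The ratio moved with height across all peaks. Against the 2000 shared peaks nearest in height, the collagen peaks had a median difference of 0.044 (log2) and 16 of 29 lay above them.

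Distal peaks, those more than 1 kb from every annotated start, were sought within 50 kb of the 5'-most start of each collagen gene. There were 85 of them, in 89 gene and peak pairs because paired genes share some. At least 1 stood near 33 of 44 collagen genes (75%), against 65% of all protein-coding genes, with a median of 2 per collagen gene, against 1. Collagen genes were also longer, with a median of 114 kb, against 17.4 kb. Of the 89 pairs, 43 lay inside the collagen gene, 43 upstream and 3 downstream. For 71 of the 85 peaks the nearest coding start was that of a collagen gene, internal starts included. All 85 were chosen for lying within 50 kb of a collagen start, and the like share for other genes was not computed. The median height of the 85 peaks was 1.64 in replicate 1 and 0.973 in replicate 2, against 1.497 and 0.874 over all 26622 shared distal peaks. Distal collagen peaks were thus about as high as distal peaks at large, unlike the promoter peaks.

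Col16a1 had the most distal peaks, 6, followed by Col5a3 and Col6a1 with 5 each. Col5a1, Col8a2, Col12a1, Col14a1, Col15a1, Col26a1 and Col27a1 had 4 each. The 5 at Col6a1 lay between 2393 and 9053 bp before its start, in the stretch upstream of the gene. The highest of all stood 42907 bp from the Col1a1 start, beyond the end of the gene, with 9.82 in replicate 1 and 4.54 in replicate 2, and the nearest coding start is that of Sgca, 2714 bp away. Next by the product of both heights came a peak 16074 bp before Col5a3 (8.33 and 3.87), whose nearest coding start is that of Rdh8. An intron of Col16a1 held a peak of 6.24 and 4.51 at 39701 bp, and another of 4.50 and 2.16 at 2781 bp. An intron of Col18a1 held a peak of 6.504 and 3.79. Col13a1 had 4.57 and 3.06 at 1513 bp before its start, higher than either of its promoter peaks. Col15a1 had an intronic peak of 4.80 and 2.04, and Col12a1 an exonic one of 3.86 and 2.33. A peak in an intron of Col8a2 (2.73 and 2.36) and a peak 46022 bp before Col26a1 (2.59 and 2.27) complete the 10 highest.

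Of the 15 collagen genes without a shared promoter peak, 12 had at least 1 distal peak, as did 21 of 29 open genes. Both multiplexins, Col15a1 and Col18a1, had intronic peaks several times as high as any peak at their starts. Col14a1 and Col8a2 had 4 distal peaks each, and Col2a1 had 1 in an intron with 2.94 and 1.36. Col7a1, Col10a1 and Col28a1 had neither a shared promoter peak nor a distal one. Open genes with no distal peak included Col3a1, Col5a2 and Col4a5.

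**Figure D4:**
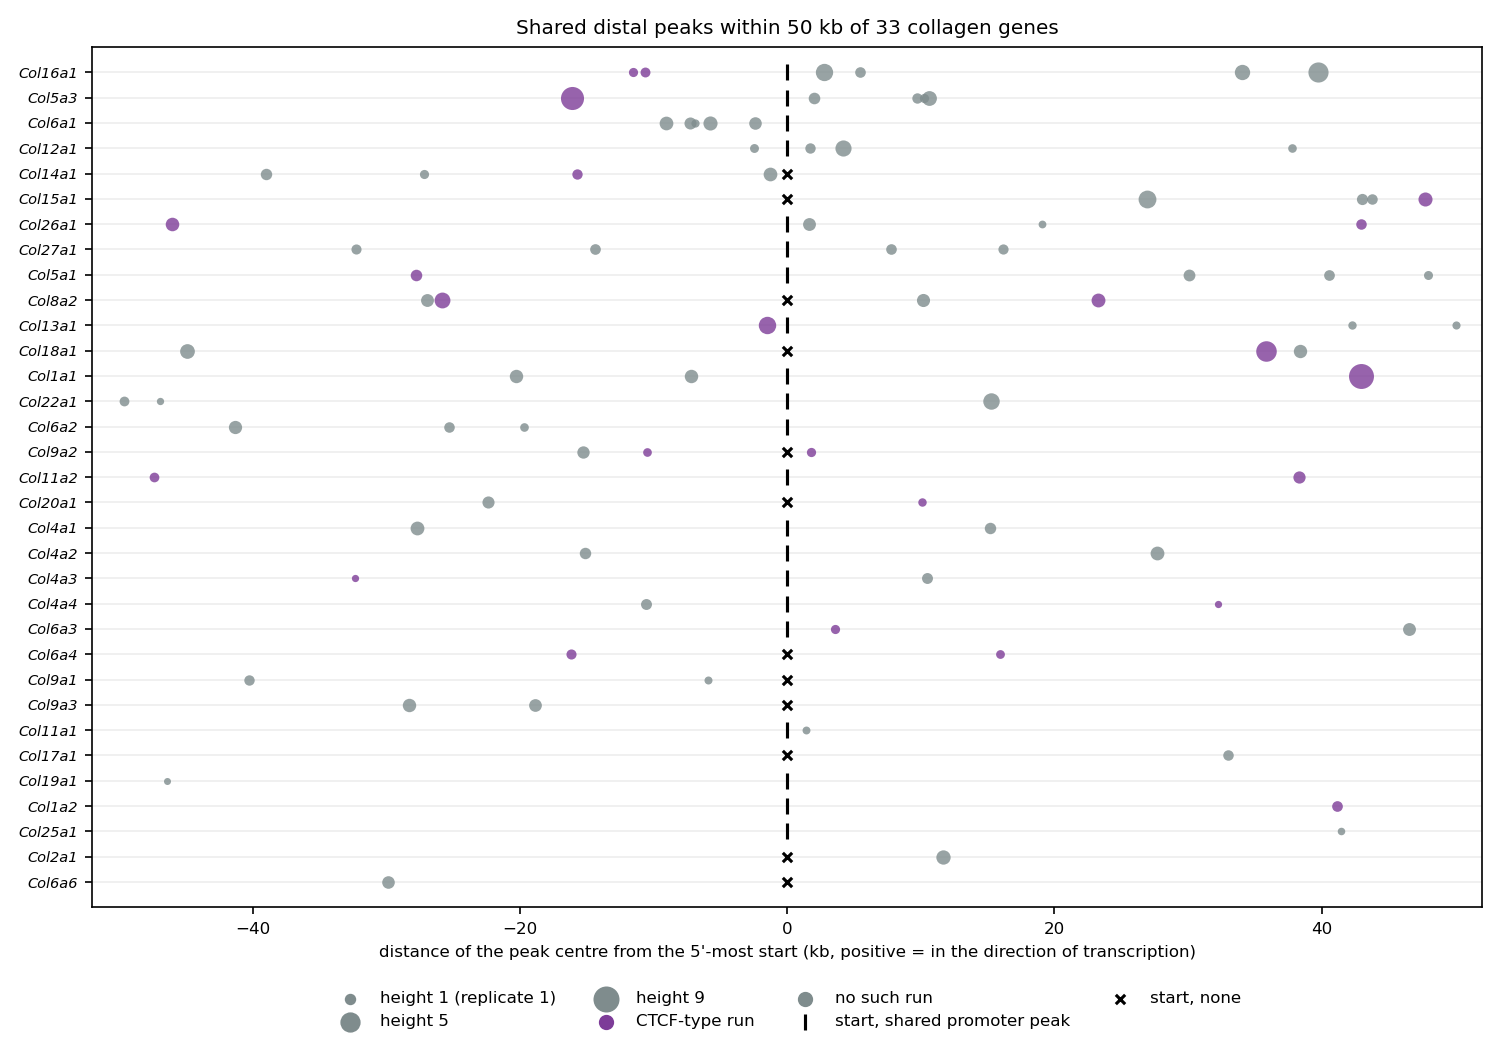
Shared distal peaks within 50 kb of 33 collagen genes, by distance of the peak centre from the 5'-most start in kb; the area of a point grows with the height in replicate 1, and purple points hold a CTCF-type run. Col16a1 has 6 peaks, the largest points lie at Col1a1 and Col5a3, and crosses mark 12 genes without a shared promoter peak.

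The highest distal peaks by the product of both heights are shown. They are Col1a1 chr11:94979041-94979220 on the plus strand, Col5a3 chr9:20831041-20831240 on the minus strand, Col18a1 chr10:77130661-77130840 on the minus strand, Col16a1 chr4:130087441-130087640 on the plus strand, and Col13a1 chr10:61980521-61980720 on the minus strand. Capitals again mark bases in footprints of both replicates.
Col1a1, beyond the gene: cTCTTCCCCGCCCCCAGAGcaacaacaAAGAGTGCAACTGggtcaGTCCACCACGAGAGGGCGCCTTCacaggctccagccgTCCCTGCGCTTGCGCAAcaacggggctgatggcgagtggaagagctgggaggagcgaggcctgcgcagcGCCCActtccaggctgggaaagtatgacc
Col5a3, upstream: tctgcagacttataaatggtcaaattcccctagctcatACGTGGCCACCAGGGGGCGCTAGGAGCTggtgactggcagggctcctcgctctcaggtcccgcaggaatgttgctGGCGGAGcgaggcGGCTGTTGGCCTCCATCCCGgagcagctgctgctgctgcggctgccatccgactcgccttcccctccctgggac
Col18a1, intron: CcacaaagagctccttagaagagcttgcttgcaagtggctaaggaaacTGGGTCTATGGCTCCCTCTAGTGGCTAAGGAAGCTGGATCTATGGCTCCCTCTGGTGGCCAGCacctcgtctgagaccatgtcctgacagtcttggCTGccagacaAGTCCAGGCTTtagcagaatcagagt
Col16a1, intron: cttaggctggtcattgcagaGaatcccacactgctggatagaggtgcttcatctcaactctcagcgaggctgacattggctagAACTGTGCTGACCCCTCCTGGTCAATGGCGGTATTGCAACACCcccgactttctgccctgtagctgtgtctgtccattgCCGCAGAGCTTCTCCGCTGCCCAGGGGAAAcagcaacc
Col13a1, upstream: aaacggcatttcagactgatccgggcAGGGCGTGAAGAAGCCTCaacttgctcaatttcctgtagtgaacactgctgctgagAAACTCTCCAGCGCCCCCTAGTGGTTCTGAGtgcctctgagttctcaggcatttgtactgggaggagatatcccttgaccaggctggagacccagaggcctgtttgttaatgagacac
Long footprints in several of these hold letters like the core bound by CTCF, a protein known for insulators and chromatin loop anchors. The pattern CCA, AG and GG with 2 free bases between each, on either strand, was searched after these sequences had been seen, and none of its matches in collagen peaks overlapped a match of the GC box, CCAAT or TATAAA. It stood in 6 of the 10 highest collagen distal peaks, in each with its centre inside a footprint of both replicates. These were the peaks of Col1a1, Col5a3, Col18a1, Col13a1, Col8a2 and Col26a1. Over all 85 collagen distal peaks it stood in 23 (27.1%), against 29.4% of all shared distal peaks. Of its 24 matches there, 16 had their centre in a footprint of both replicates (66.7%), against 74.4%. In all, 2309 shared distal peaks were at least as high in both replicates as the lowest of the 10 highest. Of these 2309, 948 held the pattern (41.1%), and 845 held it with its centre in a footprint of both replicates (36.6%). In collagen promoter peaks the pattern stood in 6 of 40 (15%), against 13.5% of all shared promoter peaks. Of its 7 matches there, 4 had their centre in a footprint of both replicates (57.1%), against 29.7%. These 4 lay in both intronic Col1a1 peaks, the printed one included, and in the highest promoter peaks of Col13a1 and Col26a1.

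Footprints of both replicates were present in 32 of 40 shared collagen promoter peaks (80%), against 81% of all shared promoter peaks, and in 77 of 85 distal collagen peaks (90.6%), against 85.7% of all shared distal peaks. Both shares were near the background. CCAAT stood 13 times in 11 of the collagen promoter peaks, and the centre of none of the 13 lay in a footprint of both replicates, against 20.9% of 10546 such matches over all shared promoter peaks. For the GC box it was 6 of 44 matches (13.6%), at Col4a1 and Col4a2, Col5a3, Col22a1, Col23a1 and Col25a1, against 21.6%. Over all collagen promoter peaks the median heights were 1.41 and 1.00, replicate 1 before replicate 2, against 3.52 and 2.09 over all shared promoter peaks, and the part of height in these footprint shares was not tested.

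Genes for collagen maturation and secretion, and basement membrane genes, were more often open than the collagen genes (65.9%) in these counts. Interstitial partners were open about as often as the collagen genes. The CpG content of the partner lists was not taken into account. Of 30 genes for collagen maturation and secretion, 29 had a shared promoter peak (96.7%), against 63.6% of all protein-coding genes, and Loxl2, a cross-linking enzyme, had none in either replicate. The highest in replicate 1 were P4ha1 (18.5 in replicate 1 and 7.66 in replicate 2) and P4hb (17.8 and 7.41), the subunits of the prolyl hydroxylase that stabilises the triple helix, and Ppib (13.2 and 5.29), a prolyl isomerase of collagen folding. Serpinh1, the chaperone of collagen in the endoplasmic reticulum, had 5.13 and 3.35, above every collagen promoter but Col6a2 in both replicates. Among laminins and other basement membrane genes 13 of 15 were open, led by Hspg2 for perlecan (10.97 and 5.62), Lamc1 (7.67 and 3.43) and Nid2 (7.08 and 3.19). Among interstitial partners 14 of 21 were open (66.7%). The versican gene Vcan had 4.05 and 1.51, fibronectin's Fn1 had 3.98 and 1.95, and Sparc, whose protein binds collagen, had 3.93 and 2.09. Lum, Fmod, Aspn, Prelp and Bgn, small leucine-rich proteoglycans of fibrils, had no promoter peak in either replicate, nor did Mgp. Ogn had one in replicate 1 only. Dcn, also a small leucine-rich proteoglycan, had a low shared peak of 0.642 and 0.527. The median heights of open genes were 3.40 and 2.08 for maturation and secretion, 3.85 and 2.33 for basement membrane, and 1.71 and 1.19 for interstitial partners, against which the collagen medians were 1.54 and 1.14.

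**Figure D5:**
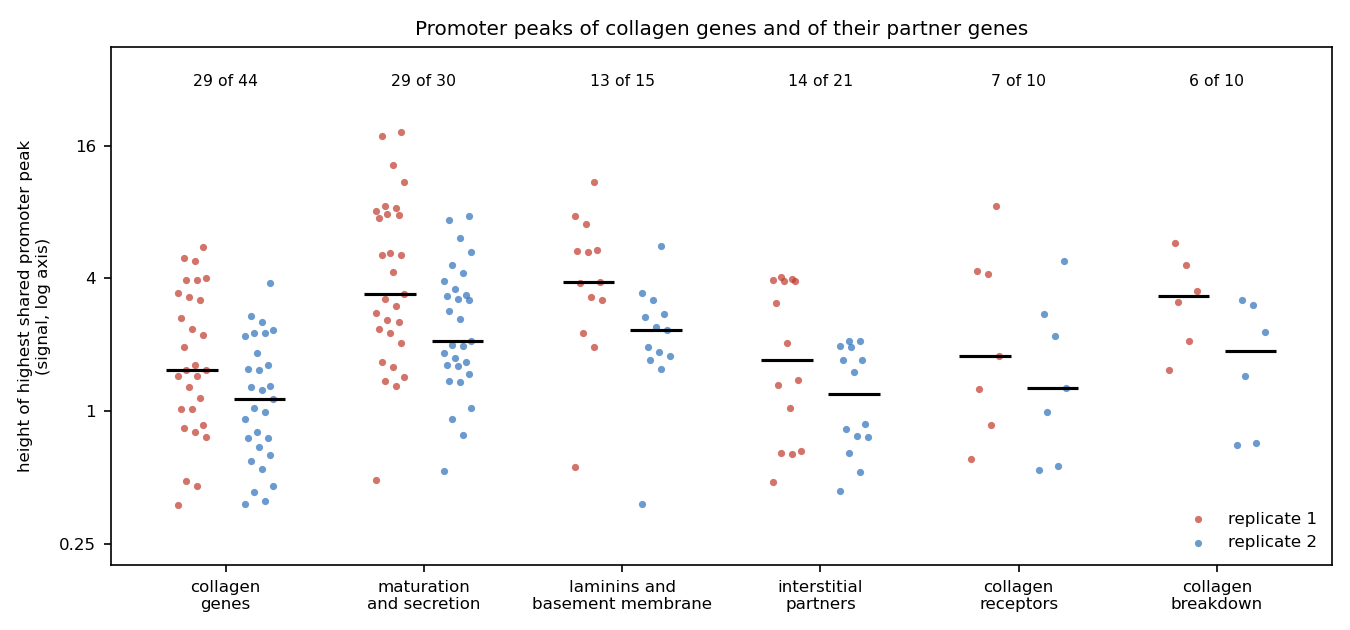
Heights of the highest shared promoter peak on a log axis for collagen genes and 5 lists of partner genes, replicate 1 left of replicate 2, with medians as bars and the number of open genes of all genes in each list above. Collagen genes and interstitial partners have the lowest medians in both replicates, and 29 of 30 maturation and secretion genes are open.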

How the data were processed

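DNase-seq of mouse adrenal gland was deposited as 1 group of 2 biological replicates. Each deposited file came from 1 sample on mm10, unpooled, per the file listing. No source used here names an aligner, peak caller or footprint caller. Peak heights are a signal that the authors normalised. The deposited FDR values, adjusted p-values, were listed under 0.05 per stretch of bases, and the deposited footprints carry a p-value of 0.01 each. Since mm10 is the C57BL/6J sequence, CAST/EiJ reads may map less well at strain differences. Read depth was not used here beyond peak counts, so intervals and steps cover counting error only.

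Shared peaks were merged regions of the shorter lists (overlap of at least 1 bp), with the highest height per replicate. GENCODE release M21 gave starts, exons and principal transcripts, and RefSeq the sequence. Shares were set beside all protein-coding genes; with 1 group no test was run. The members, the structural classes, partner lists, motifs and the naming rule (every collagen gene named, at most 4 values per class in full, the 10 highest distal peaks by the product of both heights) were chosen with earlier results of these data known. The CpG decile groups, the CTCF pattern and the comparison at like height were added after values were seen, as were the printed sequences outside the fibrillar class and the gene pair. The basement membrane genes without a shared promoter peak are not reported by name here. Overlap and window counting recovered every planted peak on simulated data. Python 3.11.15, numpy 2.4.6, scipy 1.17.1 and bedtools 2.31.1 were used.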

Additional observations from a re-analysis of the deposited data

How the results depend on the processing

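The number of collagen genes with a shared promoter peak was 24 to 33 under the longer lists, windows of 500 bp and 2 kb, 5'-most starts and 50% reciprocal overlap, and 31 to 33 when peaks of 1 replicate were used. It fell to 15 among the 50% highest peaks of each replicate, from which lower peaks are left out by construction. The difference from the share of all genes was 2.33 percentage points, 5.20 with all genes weighted by the CpG decile of the members and 5.98 to 7.52 from 1 replicate alone. In settings added after seeing the data it was -1.02 with 50% reciprocal overlap and -21.7 among the 50% highest peaks. The 85 distal peaks became 45 within 25 kb and 164 within 100 kb, 149 in the longer lists and 37 among the 50% highest peaks; replicate 2 alone gave 88 and replicate 1 alone 193. The median centred log2 ratio of replicate 1 over replicate 2 changed sign from -0.18 to 0.10 with 50% reciprocal overlap, and to 0.044 against peaks of like height, an alternative added after seeing the data, so its sign is not stable. The number of classes with an open gene was 6 to 8, and 8 to 9 from 1 replicate alone. Partner genes with a shared promoter peak numbered 52 to 74. A footprint of both replicates stood in 32 of 40 promoter peaks, and in 40 of 62 in the longer lists, a smaller share. Footprints of either replicate taken alone stood in 36 of the 40. No paired analysis was possible because there was 1 group and no test. Heights rest on 2 samples, and peaks near the calling threshold, such as those of Col4a6, Col8a1 and Col24a1, limit what can be read from presence or absence.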

Other observations

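Receptors and enzymes that meet collagen outside the cell had counts near the background. Of 10 collagen receptor genes, 7 had a shared promoter peak (70%), against 63.6% of all protein-coding genes. The highest were Itgb1, the shared integrin chain (8.54 in replicate 1 and 4.80 in replicate 2), Itga1 (4.34 and 2.18) and Ddr1, a collagen-binding kinase (4.17 and 2.75). Ddr2, the related kinase of connective tissue cells, had 0.862 and 0.539. Gp6, the platelet receptor, and Lair1, of leukocytes, had no promoter peak in either replicate, and Itga10, of cartilage cells, had one in replicate 1 only. Of 10 genes for collagen breakdown, 6 were open (60%). Of the inhibitors, Timp3 had 5.80 and 3.20, Timp2 had 4.63 and 3.04, and Timp1 had 2.07 and 0.700. Of the proteases, Mmp9 had 3.52 and 2.29, Mmp14 had 3.14 and 1.44 and Mmp2 had 1.54 and 0.713. There was thus no common order of inhibitors and proteases, and the collagenase genes Mmp8 and Mmp13, with Mmp3 and Ctsk, had no promoter peak in either replicate.

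Cell type markers were few per list, and the share over all protein-coding genes was 63.6%. A shared promoter peak stood at 4 of 6 chromaffin genes, 3 of 5 fibroblast genes, 2 of 5 endothelial genes, 3 of 5 smooth muscle and pericyte genes, 2 of 4 Schwann genes, 1 of 3 mesothelial genes, 3 of 4 adipocyte genes, 2 of 4 cartilage genes and 0 of 3 macrophage genes. Among the cartilage genes Matn1 had no promoter peak in either replicate and Acan had one in replicate 2 only. Sox9, which other tissues also use, had 3.94 in replicate 1 and 1.87 in replicate 2, and Comp had 2.83 and 1.55. The part of any of these cell types in the collagen peaks was not tested.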
